A study of Mus musculus with 45 samples.

Results

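The Notch ligand gene *Jag1*, the receptor genes *Notch1* and *Notch2*, the Notch target genes *Hes1* and *Hey1*, and the corepressor genes *Tle1*, *Tle2*, *Tle3*, *Tle4* and *Tle6* were followed in TRAP RNASeq libraries from the kidney tubules of 45 mice. These 10 genes were chosen by name out of 55401 genes in the count tables. All 10 were among the 16131 protein-coding genes of the TPM tables and passed the filter on low counts in both sexes. *Tle2* was on the list because it was lower in Pkd1KO males and not in Pkd1KO females, so its values in comparisons with Pkd1KO mice are a description, with no test.

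In Notch signaling a ligand such as Jagged1 on one cell binds a Notch receptor on its neighbor, proteases cut the receptor, and the freed intracellular domain joins the DNA-binding protein RBPJ and a Mastermind coactivator. Hes and Hey genes are the usual targets and encode repressors, and Hes proteins call in Tle proteins, the mammalian counterparts of fly Groucho. Tle proteins bind no DNA themselves and serve several other repressors too, among them the TCF factors of the Wnt pathway. In the kidney, Notch2 is known for its part in forming the proximal nephron, and Notch signaling for keeping the balance of principal and intercalated cells in the collecting duct.

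TRAP recovers the mRNA bound to ribosomes that carry the tagged protein L10a-EGFP. Noncystic mice were Pkd1fl/+ (8 males, 7 females), Pkd1KO mice were Pkd1fl/fl (7 males, 8 females) and Pkd1KO+ciliaKO mice, which lose cilia with *Kif3a*, were Pkd1fl/fl; Kif3afl/fl (9 males, 6 females). Mice of every group, noncystic ones included, carried 1 copy each of RosaEGFP-Rpl10a, Pax8rtTA and TetOCre, had doxycycline by mouth over postnatal days 28 to 42, and gave their kidneys at day 49 (7 weeks). The Pax8 promoter limits Cre, and with it the gene deletion and the tag, to kidney tubules. The noncystic mice are labelled wild type but carried 1 floxed *Pkd1* allele of their own.

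Each library held 80874556 to 132958186 counted fragments (median 103070359). *Kif3a* lay between 4.90 and 7.45 CPM (counts scaled to library size by TMM) in Pkd1KO+ciliaKO males, below all other males (13.8 to 29.2), but 2 female libraries went against their labels. The library labelled noncystic female 5 had 6.69 CPM, where the other noncystic females had 23.2 to 25.4, and the library labelled Pkd1KO+ciliaKO female 6 had 20.7 CPM, where the other 5 had 6.56 to 8.47. Gene-level *Pkd1* overlapped between all groups (33.2 to 84.9 CPM over males, 33.4 to 64.2 CPM over females) and did not separate the genotypes. In 4 males (noncystic 3, Pkd1KO 4, Pkd1KO+ciliaKO 6 and 8) the summed level of 6 male-biased tubule genes was 7679, 14632, 3177 and 3461 CPM, against 12724 to 35381 in the other 20 males. The sum of 4 female-biased genes was 243, 48.5, 411 and 370 CPM in these 4, against 16.1 to 85.2, so that 3 of the 4 lay outside the other males on each sum and Pkd1KO male 4 on neither. Proximal tubule markers summed to 5344 to 12588 CPM over all mice. Of the cell types that should not carry the tag, 10 endothelial markers summed to 96.0 to 599 CPM and 5 podocyte markers to 40.2 to 175 CPM, and no marker of either list was at 0 in any group. Pkd1KO male 4 was the mouse with the highest endothelial and podocyte sums, and 3 of the 4 males above lay over all other males for both. The part of these libraries in the results below was not tested beyond leaving them out. In whole kidney pulldowns such as these, fewer cells of a type and less mRNA per cell cannot be told apart.

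The sequence before the start of 4 genes is shown because these genes carried the differences described below: *Tle2* for its values by genotype and sex, *Tle1* and *Tle3* for their opposite sex difference, and *Notch2* for its difference between Pkd1KO and Pkd1KO+ciliaKO females. The window of *Tle2* lies inside the span of the gene in the files, and those of *Tle1* and *Notch2* reach into theirs at the edge. Each run is the 250 bases before the RefSeq start on GRCm38.p6, read 5′ to 3′ on the gene's strand, with motif letters in capitals. *Tle2* is at chr10:81575037-81575286 (+ strand), *Tle1* at chr4:72200894-72201143 (− strand), *Tle3* at chr9:61372116-61372365 (+ strand) and *Notch2* at chr3:98013288-98013537 (+ strand).
Tle2: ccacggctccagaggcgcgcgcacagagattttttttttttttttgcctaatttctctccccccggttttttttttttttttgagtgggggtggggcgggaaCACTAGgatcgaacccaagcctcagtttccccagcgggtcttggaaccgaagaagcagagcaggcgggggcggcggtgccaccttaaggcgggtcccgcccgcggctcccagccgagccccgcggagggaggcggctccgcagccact
Tle1: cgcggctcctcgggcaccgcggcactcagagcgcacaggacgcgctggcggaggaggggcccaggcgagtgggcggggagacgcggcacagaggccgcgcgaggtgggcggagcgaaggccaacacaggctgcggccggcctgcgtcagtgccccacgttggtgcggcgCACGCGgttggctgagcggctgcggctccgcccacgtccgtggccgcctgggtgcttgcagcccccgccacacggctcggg
Tle3: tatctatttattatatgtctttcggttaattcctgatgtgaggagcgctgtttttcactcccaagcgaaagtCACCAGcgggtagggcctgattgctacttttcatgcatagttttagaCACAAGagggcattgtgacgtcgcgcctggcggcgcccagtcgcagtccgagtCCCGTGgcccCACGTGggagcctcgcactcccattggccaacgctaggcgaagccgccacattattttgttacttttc
Notch2: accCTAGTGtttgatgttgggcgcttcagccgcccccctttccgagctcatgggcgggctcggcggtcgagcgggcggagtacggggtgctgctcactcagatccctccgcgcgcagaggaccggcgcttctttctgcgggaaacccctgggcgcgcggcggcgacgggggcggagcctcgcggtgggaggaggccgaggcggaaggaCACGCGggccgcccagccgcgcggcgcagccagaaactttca
The motifs were searched on both strands: the RBPJ core TGGGAA, the E-box CACGNG that Hes and Hey proteins bind, and the N-box CACNAG. None overlapped another in these 4 windows. The RBPJ core was in 0 of the 10 windows that 8 of the genes had, and in 21.6% of all 32851 promoter windows. The E-box was in *Tle1* (1 place), *Tle3* (2 places) and *Notch2* (1 place), not in *Tle2*, and in 23.5% of all windows. The N-box was in *Tle2* (1 place), *Tle3* (2 places) and *Notch2* (1 place), not in *Tle1*, and in 36.7% of all windows. *Hes1* and *Hey1* had no window in the RefSeq table used.

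In GENCODE on GRCm38, *Tle2* (ENSMUSG00000034771.15) spans chr10:81574561-81590845 on the plus strand and *Tle6* (ENSMUSG00000034758.12) spans chr10:81590904-81601073 on the minus strand, so that their ends face each other with 58 bases between them. *Tle1* (ENSMUSG00000008305.18) is at chr4:72117142-72200919, *Tle3* (ENSMUSG00000032280.16) at chr9:61372366-61418497 and *Tle4* (ENSMUSG00000024642.17) at chr19:14448150-14598051. *Notch1* (ENSMUSG00000026923.15) is at chr2:26457903-26516663, *Notch2* (ENSMUSG00000027878.11) at chr3:98013527-98150361 and *Jag1* (ENSMUSG00000027276.7) at chr2:137081456-137116644. *Hes1* (ENSMUSG00000022528.8) is at chr16:30064384-30067796 and *Hey1* (ENSMUSG00000040289.8) at chr3:8663359-8667256. All values below are gene-level sums over exons. The strand setting of the counting is not given in the sources used here, so *Tle1*, *Tle2* and *Notch1*, which share exonic bases with opposite-strand transcripts, are less certain. *Tle2* shares 98 exonic bases with the antisense gene *Gm15917* (1 to 89 counts, against a median of 556 for *Tle2*), and *Notch1* shares 1068 with the opposite-strand *0610009E02Rik* (108 to 213 counts, against a median of 2280). The overlap of *Tle1* carried at most 3 counts. *Notch2* shares exonic bases with a transcript on its own strand (at most 34 counts), an overlap that does not depend on the strand setting.

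Compared per transcript length, the genes covered a wide range of levels. In noncystic males *Tle3* was highest at 43.2 ± 6.2 TPM (SD, n = 8), followed by *Hes1* at 31.7 ± 5.2 TPM and *Notch2* at 30.7 ± 6.6 TPM, whose ranges overlapped each other and that of *Tle3*. *Jag1* (14.9 ± 2.6 TPM) and *Tle4* (12.6 ± 2.0 TPM) came next and overlapped. *Tle1* (5.81 ± 1.42 TPM), *Notch1* (4.29 ± 1.72 TPM) and *Tle2* (2.23 ± 0.61 TPM) formed a lower group in which each overlapped the next. *Tle6* (0.79 ± 0.33 TPM) and *Hey1* (0.53 ± 0.20 TPM) were lowest and overlapped, and they had only 32 to 133 and 31 to 91 counts per noncystic male, so their fold changes are the least precise. In males, neighbors whose ranges did not overlap were thus *Notch2* and *Jag1*, *Tle4* and *Tle1*, and *Tle2* and *Tle6*. In noncystic females the order was *Hes1* at 45.1 ± 4.2 TPM (SD, n = 7), *Notch2* at 35.1 ± 3.8 TPM and *Tle3* at 31.7 ± 3.1 TPM, then the same order as in males from *Jag1* down to *Hey1* at 0.57 ± 0.10 TPM. In females the ranges of *Hes1*, *Notch2* and *Tle3* overlapped in this order, as did those of *Notch1* and *Tle2*, and the other neighbors did not. The TPM tables of the sexes were normalized separately, so the sexes are compared below only on CPM.

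Across the 6 comparisons of genotypes within a sex, with all mice kept as labelled, 1 result of these genes passed the test apart from *Tle2*, which was not tested where Pkd1KO mice took part: *Notch2* was higher in Pkd1KO than in Pkd1KO+ciliaKO females. This count depended on the mice kept. Without the 2 females whose *Kif3a* went against the label, *Tle2*, *Notch1* and *Hey1* passed in Pkd1KO+ciliaKO against noncystic females (adjusted p = 0.0033, 0.0146 and 0.0449). Between noncystic females and males, 5 of the 10 genes differed. These include *Tle2*, whose noncystic values in each sex are among those it was chosen by, so its test is not independent of the choice. *Tle2*, *Tle1*, *Hes1* and *Jag1* were higher in females and *Tle3* was higher in males, beside 12.2% of all genes higher and 15.3% lower in females. Every test was the quasi-likelihood test of edgeR, with p adjusted by Benjamini-Hochberg over all genes tested and a threshold of 0.05.

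**Figure D1:**
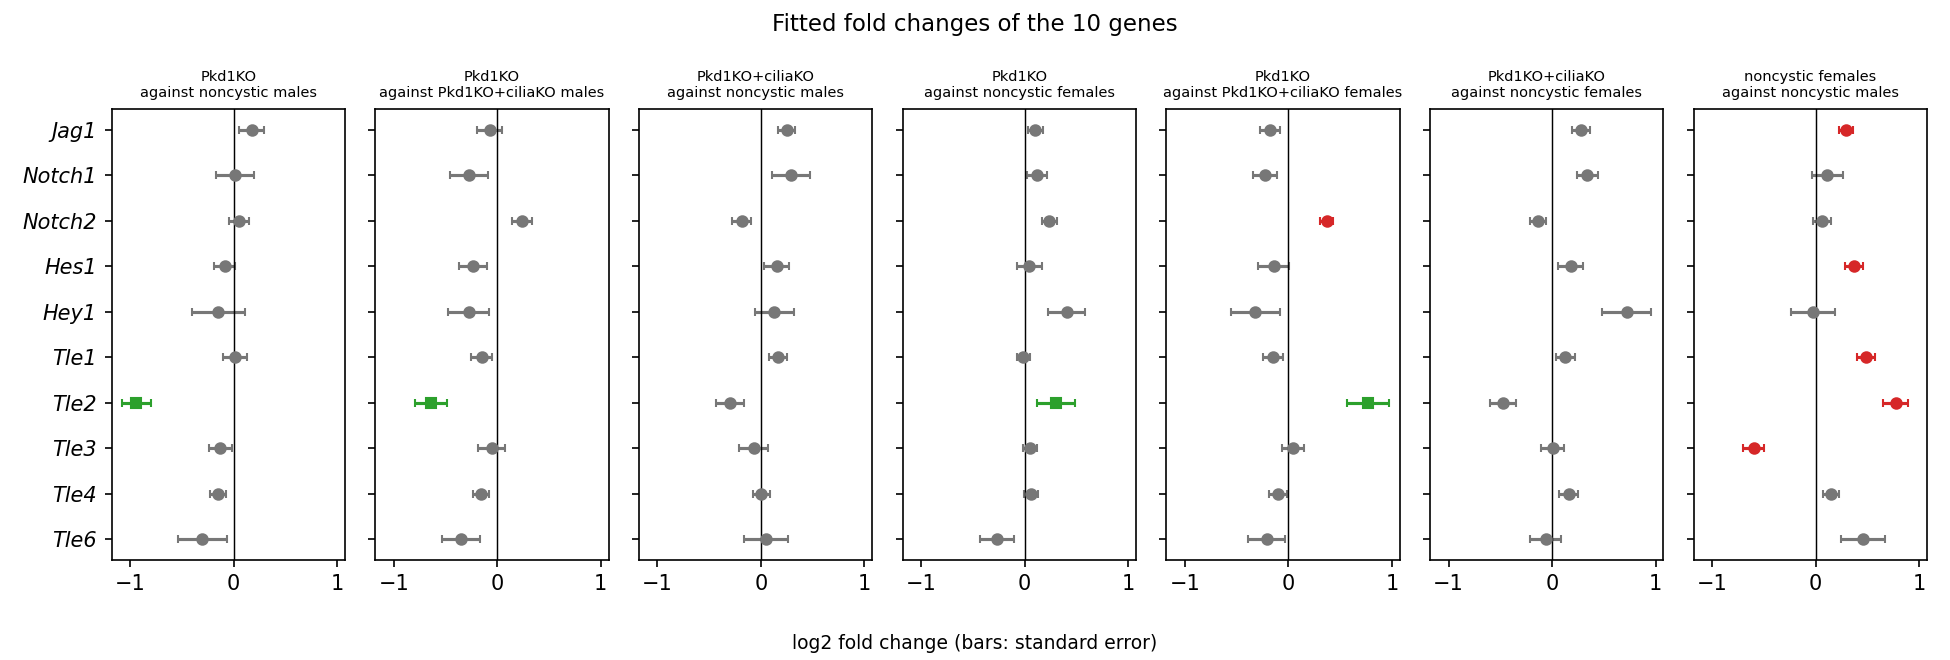
Log2 fold changes of the 10 genes (x axis) in 6 comparisons of genotypes within a sex and 1 of the sexes; bars are standard errors. Red points passed the threshold, grey points did not, and green squares are *Tle2* values given with no test. *Notch2* at 0.37 in Pkd1KO against Pkd1KO+ciliaKO females is the one red point among the genotype comparisons, and the last panel holds 5. *Tle2* is among these 5, and its noncystic values are among those it was chosen by.

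*Jag1*, the one ligand among these genes, passed the test in none of the genotype comparisons, where 6.30% (Pkd1KO against noncystic males), 3.77% (Pkd1KO against Pkd1KO+ciliaKO males), 8.89% (Pkd1KO+ciliaKO against noncystic males), 3.34%, 11.7% and 2.54% (the same 3 in females) of all genes did. In males it ran from 23.5 to 33.1 CPM in noncystic mice (median 29.2), from 23.8 to 43.2 CPM in Pkd1KO mice (median 29.9) and from 28.2 to 41.6 CPM in Pkd1KO+ciliaKO mice (median 35.1). In females it ran from 34.0 to 38.5 CPM in noncystic mice (median 35.6), from 28.9 to 44.0 CPM in Pkd1KO mice (median 39.3) and from 38.2 to 53.8 CPM in Pkd1KO+ciliaKO mice (median 40.0). The groups overlapped in each sex. The values nearest to the threshold were those of Pkd1KO+ciliaKO against noncystic mice, with a log2 fold change of 0.25 ± 0.09 (SE, adjusted p = 0.0797) in males and 0.28 ± 0.08 (adjusted p = 0.0778) in females. In males the value without noncystic male 3 was 0.27 (adjusted p = 0.0448). In females DESeq2 gave 0.29 (adjusted p = 0.0309) and limma on log2(TPM + 1) gave 0.38 (adjusted p = 0.0231), so that the call depended on the tool.

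*Notch2* was the member with a genotype difference past the threshold. In Pkd1KO females it ran from 123 to 155 CPM (median 136), in Pkd1KO+ciliaKO females from 94.6 to 113.9 CPM (median 109) and in noncystic females from 98.6 to 133 CPM (median 116). Every one of the 8 Pkd1KO females lay above every one of the 6 Pkd1KO+ciliaKO females, and 5 of the 8 lay above all noncystic females. The log2 fold change of Pkd1KO against Pkd1KO+ciliaKO females was 0.37 ± 0.07 (SE), with an adjusted p of 0.00274. Without the 2 females whose *Kif3a* went against the label it was 0.37 (adjusted p = 0.00558), and over all 22 alternatives the adjusted p lay between 1.73e-05 and 0.0262. It was 1 of 9 genes counted, *Tle2* being left out, that passed in this comparison, against 11.7% of all genes. *Notch2* is the receptor known for proximal nephron formation. Of 8 proximal tubule markers, 2 (*Hnf4a* and *Slc5a2*) passed as higher in Pkd1KO than in Pkd1KO+ciliaKO females, beside 7.05% of all genes that passed as higher. Of the 8 fold changes 6 were positive. The part of the tubule segments in the *Notch2* value was not tested.

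Against noncystic females, the log2 fold change of *Notch2* in Pkd1KO females was 0.24 ± 0.07 (SE, adjusted p = 0.0875, with a range of 0.0448 to 0.183 over the alternatives). In males the groups overlapped, at 90.6 to 139 CPM in noncystic (median 108), 100.2 to 139.5 CPM in Pkd1KO (median 107) and 80.3 to 129 CPM in Pkd1KO+ciliaKO mice (median 95.9). Pkd1KO against Pkd1KO+ciliaKO males gave a log2 fold change of 0.24 ± 0.10 (adjusted p = 0.176), and without Pkd1KO+ciliaKO male 9, the highest of its group, 0.31 (adjusted p = 0.0455). The difference between the sexes in this contrast was 0.13 ± 0.13 (females minus males, adjusted p = 0.835), so a *Notch2* difference particular to females was not shown.

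*Notch1* passed the test in no comparison, and its values moved with the libraries that stood apart. In males it ran from 12.2 to 33.2 CPM in noncystic mice (median 19.5), from 15.4 to 29.0 CPM in Pkd1KO mice (median 17.3) and from 16.1 to 37.4 CPM in Pkd1KO+ciliaKO mice (median 21.2). The highest value of each of these 3 groups belonged to one of the 4 males above, and 3 of the 4 lay over all other males (12.2 to 30.6 CPM). In females it ran from 18.1 to 24.999 CPM in noncystic mice (median 22.5), from 19.3 to 30.0 CPM in Pkd1KO mice (median 24.0) and from 20.4 to 32.1 CPM in Pkd1KO+ciliaKO mice (median 28.8). The lowest Pkd1KO+ciliaKO female was the library labelled 6, and the other 5 lay above all noncystic females. Pkd1KO+ciliaKO against noncystic females gave a log2 fold change of 0.34 ± 0.10 (SE, adjusted p = 0.0694), and 0.42 (adjusted p = 0.0146) without the 2 females whose *Kif3a* went against the label. DESeq2 gave 0.35 (adjusted p = 0.0224) and limma 0.39 (adjusted p = 0.0374) with all females.

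**Figure D2:**
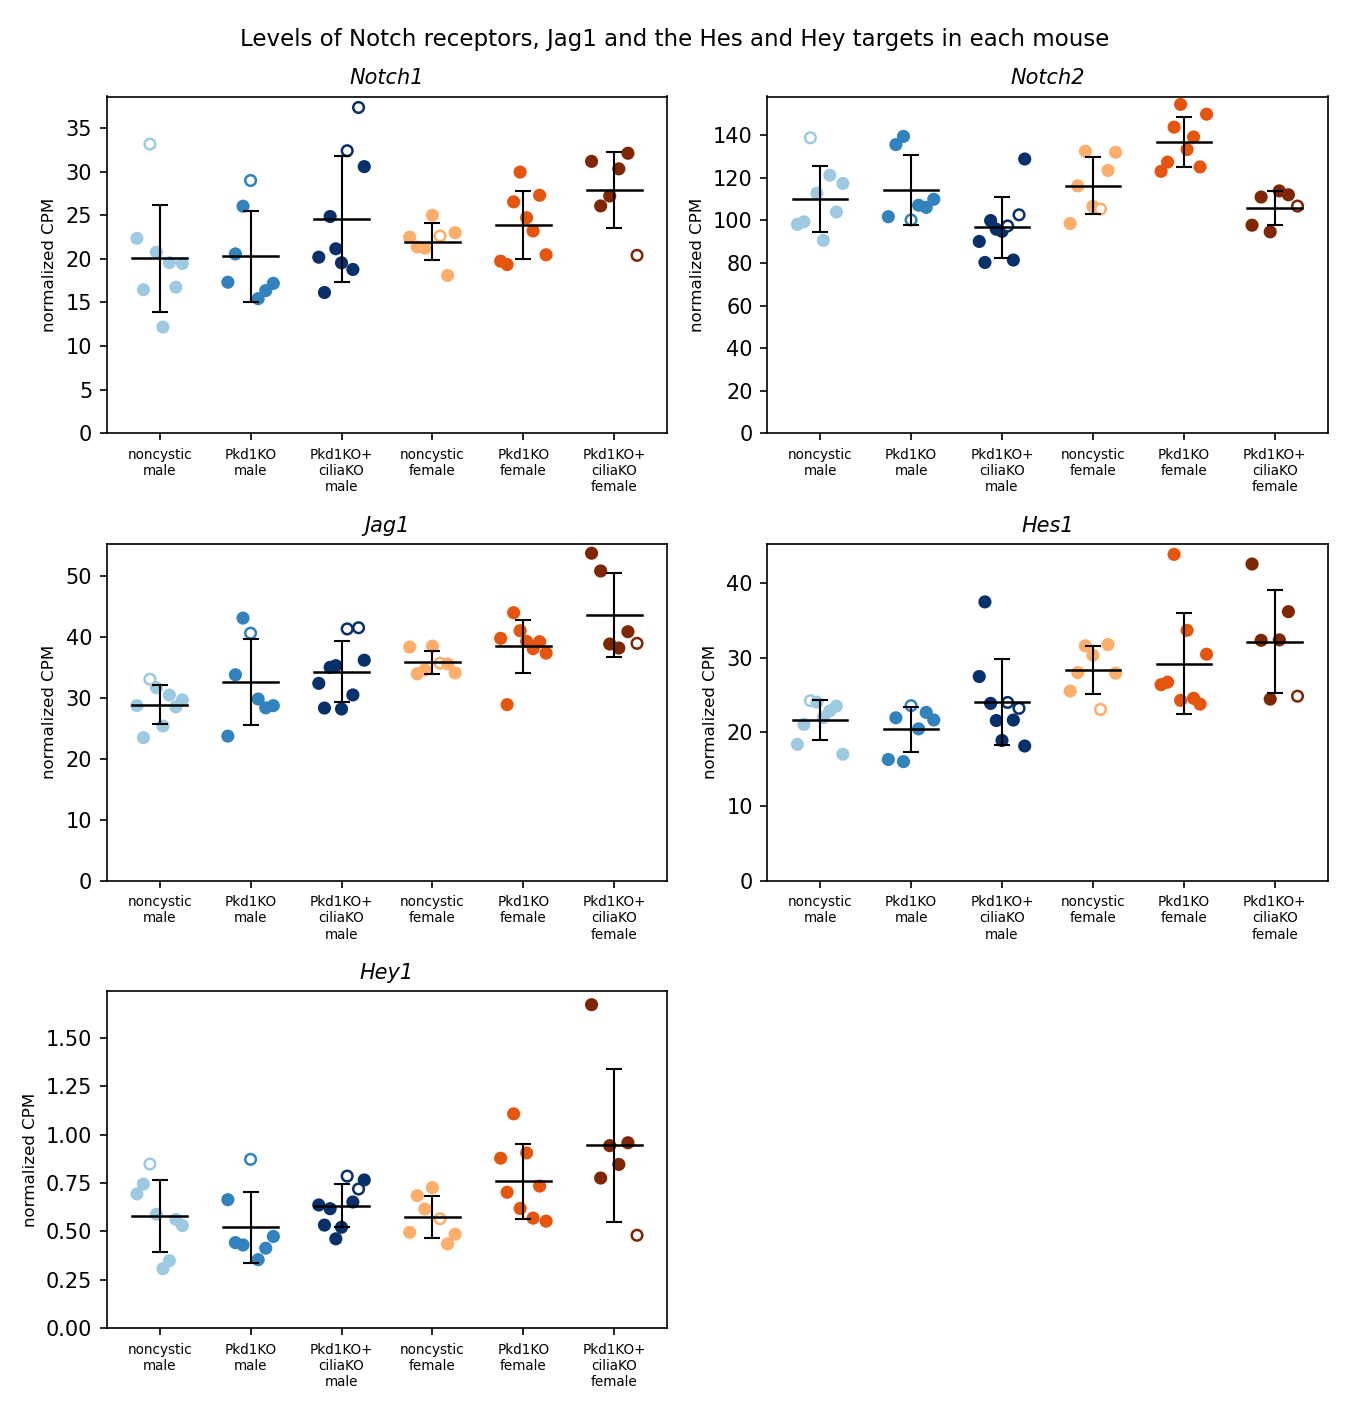
Normalized CPM (y axis, from 0) of *Notch1*, *Notch2*, *Jag1*, *Hes1* and *Hey1* in each mouse of the 6 groups; lines are means and bars standard deviations. Open points are the 4 males that stood apart and the 2 females whose *Kif3a* went against the label. All 8 Pkd1KO females lie above all 6 Pkd1KO+ciliaKO females for *Notch2*, and the open male points lie high for *Notch1*.

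The target genes *Hes1* and *Hey1*, which encode repressors of the same family, passed the test in no genotype comparison. *Hes1* had medians of 22.4, 21.6 and 23.2 CPM in noncystic, Pkd1KO and Pkd1KO+ciliaKO males, within a range of 16.0 to 37.5 CPM. In females its medians were 28.0, 26.5 and 32.4 CPM in the same order, within a range of 23.0 to 43.9 CPM. The groups of each sex overlapped, and no log2 fold change of *Hes1* was beyond −0.24 or 0.18. *Hey1* was near the low end of what was measured, from 0.31 to 0.87 CPM in males and from 0.44 to 1.67 CPM in females. Its largest difference was in Pkd1KO+ciliaKO against noncystic females, with a log2 fold change of 0.72 ± 0.24 (SE, adjusted p = 0.0988), where 5 of the 6 Pkd1KO+ciliaKO females lay above all noncystic females. Without the 2 females whose *Kif3a* went against the label this was 0.85 (adjusted p = 0.0449), and by DESeq2 with all females 0.73 (adjusted p = 0.0398). By limma on log2(TPM + 1) it was 0.35 (adjusted p = 0.0528). In the same comparison the markers of untagged cell types did not all rise. Of 6 macrophage markers 3 had a positive fold change, and the median was 0.03 on the log2 scale. The macrophage sum, most of it *Csf1r*, had a median of 73.7 CPM in noncystic and 63.5 CPM in Pkd1KO+ciliaKO females. *Csf1r* had means of 58.9 and 43.8 CPM in these groups. In Pkd1KO+ciliaKO females *Ptprc*, *Adgre1* and *C1qa* had higher means, and *Cd68* and *C1qb* slightly lower ones. All markers of 3 other untagged cell types had a positive fold change. Their medians on the log2 scale were 0.21 (10 endothelial), 0.31 (8 pericyte and fibroblast) and 0.25 (5 podocyte), against 0.01 over all genes. By edgeR 0 of these markers passed the test, with 2, 2 and 1 at an unadjusted p under 0.05; their part in the *Hey1* and *Notch1* values was not tested.

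*Tle2* was the corepressor gene with the widest spread between groups. In males it ran from 3.73 to 6.47 CPM in noncystic mice (median 4.41), from 1.90 to 3.12 CPM in Pkd1KO mice (median 2.44) and from 2.66 to 5.47 CPM in Pkd1KO+ciliaKO mice (median 3.69). No Pkd1KO male reached the lowest noncystic male, and 6 of the 7 lay below all Pkd1KO+ciliaKO males. The means were 4.61 ± 0.88 (SD, n = 8), 2.41 ± 0.40 (n = 7) and 3.75 ± 0.90 CPM (n = 9). The log2 fold change of Pkd1KO males was −0.94 ± 0.14 (SE) against noncystic males and −0.64 ± 0.15 against Pkd1KO+ciliaKO males. On log2(TPM + 1), a scale that understates the change of low genes, the first was −0.59 and the second −0.45.

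In females *Tle2* ran from 5.87 to 9.72 CPM in noncystic mice (median 8.12), from 6.30 to 18.7 CPM in Pkd1KO mice (median 8.64) and from 4.96 to 7.54 CPM in Pkd1KO+ciliaKO mice (median 5.38). Pkd1KO and noncystic females overlapped, and 7 of the 8 Pkd1KO females lay above all Pkd1KO+ciliaKO females. The log2 fold change of Pkd1KO females was 0.30 ± 0.19 (SE) against noncystic females and 0.77 ± 0.20 against Pkd1KO+ciliaKO females, and without Pkd1KO female 4, the highest value at 18.7 CPM, the first of these was 0.10. On log2(TPM + 1) the second was 0.50. The female minus male difference of these contrasts was 1.24 ± 0.23 and 1.41 ± 0.24 on the log2 scale. These values chose the gene and carry no test.

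**Figure D3:**
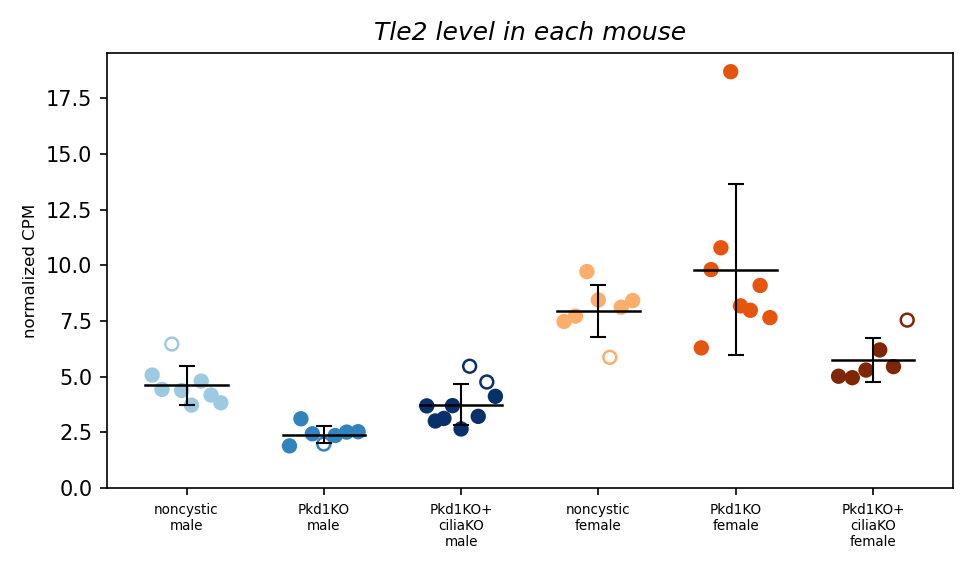
*Tle2* level in normalized CPM (y axis, from 0) in each mouse of the 6 groups; lines are means and bars standard deviations. Open points are the 4 males that stood apart and the 2 females whose *Kif3a* went against the label. All 7 Pkd1KO males lie below all 8 noncystic males, and Pkd1KO female 4 at 18.7 lies above all other mice.

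The libraries that stood apart touched the *Tle2* values. Noncystic male 3 was the highest noncystic male and Pkd1KO+ciliaKO males 6 and 8 were the highest of their group, while Pkd1KO male 4 was the second lowest of its group at 1.98 CPM. Without these 4 males the log2 fold changes of Pkd1KO males were −0.81 against noncystic and −0.45 against Pkd1KO+ciliaKO males. In females, the library labelled noncystic 5 was the lowest noncystic value at 5.87 CPM, and the library labelled Pkd1KO+ciliaKO 6 the highest of its group at 7.54 CPM. Without both, Pkd1KO females gave log2 fold changes of 0.24 against noncystic and 0.86 against Pkd1KO+ciliaKO females.

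Pkd1KO+ciliaKO against noncystic mice is the *Tle2* comparison that its choice did not use, although it shares the noncystic mice with one that it did. *Tle2* was lower in both sexes without passing the threshold, at a log2 fold change of −0.30 ± 0.14 (SE, adjusted p = 0.193) in males and −0.47 ± 0.12 (adjusted p = 0.0545) in females. Without the libraries that stood apart, the male value was −0.38 (adjusted p = 0.0298). Without the 2 females whose *Kif3a* went against the label, the female value was −0.63 (adjusted p = 0.0033). DESeq2 gave −0.47 (adjusted p = 0.00714) in females. Over the alternatives, adjusted p lay between 0.0298 and 0.523 in males and between 0.0033 and 0.152 in females. The difference between the sexes in this contrast was −0.17 ± 0.23 (adjusted p = 1.00).

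The other corepressor genes moved little with genotype. *Tle1*, *Tle3*, *Tle4* and *Tle6* passed the test in 0 of the 6 comparisons within a sex by edgeR, and all groups compared overlapped. The log2 fold changes of *Tle1* lay between −0.15 and 0.16, those of *Tle3* between −0.13 and 0.05 and those of *Tle4* between −0.15 and 0.16. *Tle6*, a more divergent family member best known from the egg, had values between −0.35 and 0.05 with standard errors of 0.15 to 0.24. Over the 9 genes other than *Tle2*, the median log2 fold change was −0.09 in Pkd1KO against noncystic males and −0.15 against Pkd1KO+ciliaKO males, beside −0.01 and 0.01 over all genes. In females the same medians were 0.06 and −0.15, beside −0.0008 and −0.01. Unadjusted p under 0.05 was reached by 0, 1, 2 and 1 of the 9 in these 4 comparisons, and the share of all genes at that level is not given here.

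Sex was the contrast in which most of these genes differed. In noncystic mice 5 of 10 passed the test between females and males, beside 27.5% of all genes, and 4 of 9 without *Tle2*. The noncystic values of *Tle2* in each sex are among those it was chosen by, so its test here is not independent of the choice. *Tle2* was higher in females by 0.77 ± 0.12 on the log2 scale (SE, adjusted p = 0.000147), and the highest male, the library that stood apart, lay among the females. *Tle1*, with a median of 23.5 CPM in noncystic females (21.8 to 26.2) and 15.7 CPM in noncystic males (14.0 to 22.2), was higher in females by 0.49 ± 0.08 (adjusted p = 0.000365). *Tle3* ran the other way, from 103.7 to 129 CPM in females (median 111) and from 126 to 204 CPM in males (median 184), with a log2 fold change of −0.60 ± 0.10 (adjusted p = 0.00034). The lowest noncystic male for *Tle3* and the highest for *Tle1* was in both cases noncystic male 3.

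*Hes1* was higher in noncystic females by 0.37 ± 0.09 on the log2 scale (SE, adjusted p = 0.00446), at 23.0 to 31.8 CPM against 17.0 to 24.2 CPM in males. *Jag1* was higher by 0.29 ± 0.07 (adjusted p = 0.00347), and its groups did not overlap, at 34.0 to 38.5 CPM in females and 23.5 to 33.1 CPM in males. All 5 differences passed the threshold under each of 21 alternatives, of which that of *Tle2* is not independent of its choice. Without noncystic male 3 their log2 fold changes were 0.86 for *Tle2*, 0.56 for *Tle1*, −0.64 for *Tle3*, 0.41 for *Hes1* and 0.33 for *Jag1*. *Notch1* (0.11 ± 0.15, adjusted p = 0.609), *Notch2* (0.06 ± 0.09, adjusted p = 0.659), *Hey1* (−0.03 ± 0.21, adjusted p = 0.937) and *Tle4* (0.15 ± 0.08, adjusted p = 0.165) did not pass. *Tle6* gave 0.46 ± 0.21 (adjusted p = 0.123), and 0.58 (adjusted p = 0.0379) without noncystic male 3.

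The order of the sexes for *Tle1* and *Tle3* was also seen in the other genotypes, where it was not tested. *Tle1* had medians of 16.0 and 18.3 CPM in Pkd1KO and Pkd1KO+ciliaKO males, and 23.3 and 26.3 CPM in the females. *Tle3* had medians of 162 and 172 CPM in these males, and 116 and 109 CPM in these females. The 4 males that stood apart had *Tle1* at 21.0 to 22.7 CPM, above all 20 other males (14.0 to 20.6), and *Tle3* at 100.4 to 126.3 CPM, below all 20 (127 to 204). For both genes they lay inside the female range of 20.4 to 33.8 CPM and 90.9 to 160 CPM. For *Tle2* 2 of the 4 lay above all other males, and Pkd1KO male 4 did not.

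**Figure D4:**
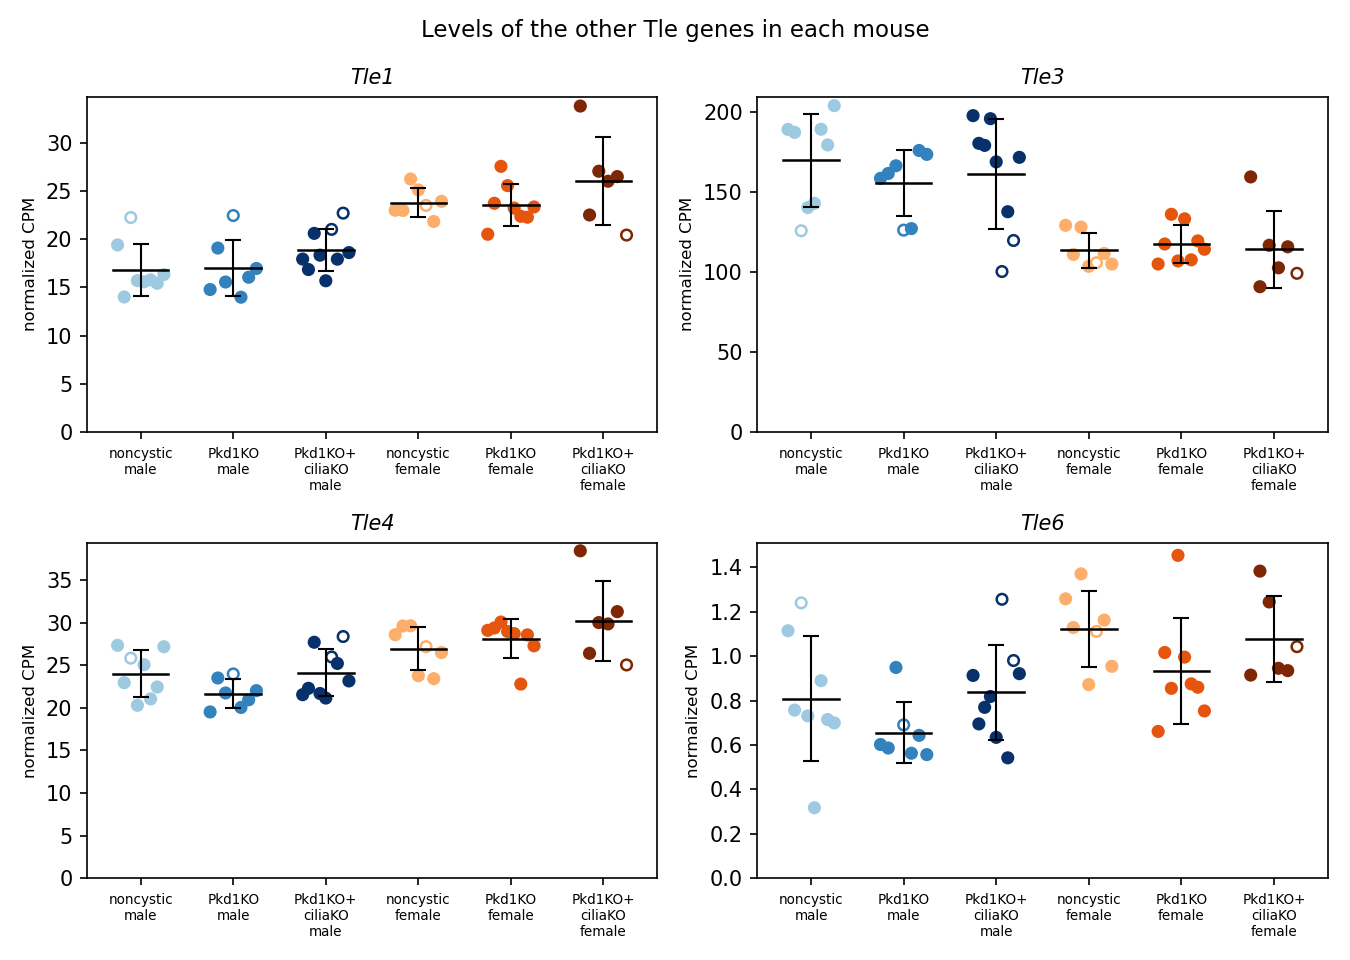
Normalized CPM (y axis, from 0) of *Tle1*, *Tle3*, *Tle4* and *Tle6* in each mouse of the 6 groups; lines are means and bars standard deviations. Open points are the 4 males that stood apart and the 2 females whose *Kif3a* went against the label. The open male points lie above the other males for *Tle1* and below them for *Tle3*.

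Whether genotype effects differed between the sexes was tested in one fit of all mice. Of the genes counted, 0 of 9 passed by edgeR in Pkd1KO against noncystic mice, beside 0.0126% of all genes, and 0 of 9 in Pkd1KO against Pkd1KO+ciliaKO mice, beside 0.221%. In Pkd1KO+ciliaKO against noncystic mice 0 of 10 passed, beside 0.0316%. Unadjusted p under 0.05 was reached by 0 of them in each of the 3, and DESeq2 called 0 as well.

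The wider pathway was read from a list of 69 genes in 10 groups, of which 66 were measured in males and 67 in females. In Pkd1KO against noncystic males 2 of 65 passed, *Tle2* being left out, beside 6.30% of all genes. *Pofut1*, which adds the O-fucose that Notch receptors need, rose by 0.46 ± 0.07 on the log2 scale (SE, adjusted p = 0.0012), from 19.2 to 25.2 CPM in noncystic to 27.5 to 34.2 CPM in Pkd1KO males with no overlap. *Pofut1* rose in Pkd1KO females as well, by 0.33 ± 0.07 (adjusted p = 0.0115), where 7 of 8 lay above all noncystic females. It was also higher in Pkd1KO than in Pkd1KO+ciliaKO males, by 0.25 ± 0.07 (adjusted p = 0.0456), and gave 0.18 ± 0.07 (adjusted p = 0.111) in females.

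In Pkd1KO against noncystic females 3 of 66 listed genes passed, beside 3.34% of all genes. Beside *Pofut1*, the ligand ubiquitin ligase gene *Mib1* rose by 0.33 ± 0.06 on the log2 scale (SE, adjusted p = 0.0071). Its range was 304 to 377 CPM in Pkd1KO and 222 to 291 CPM in noncystic females, with no overlap. *Neurl1b*, another ligand ubiquitin ligase gene, fell by 0.36 on the log2 scale (SE 0.07, adjusted p = 0.0102), from 84.0 to 107.9 CPM in noncystic to 61.4 to 83.7 CPM in Pkd1KO females. These 2 of the 4 ligand ubiquitin ligase genes went opposite ways, and the other two did not pass.

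Of 10 receptor protease genes, 1 passed as higher in Pkd1KO than in Pkd1KO+ciliaKO males, beside 3.77% of all genes in either direction. The same comparison of females had 2 higher and 1 lower, beside 7.05% and 4.65% of all genes. *Psen2*, which encodes a presenilin, the catalytic part of the gamma-secretase that makes the last cut in the receptor, was higher in Pkd1KO males by 0.54 ± 0.10 on the log2 scale (SE, adjusted p = 0.0052), at 10.03 to 13.3 CPM against 5.78 to 9.59 CPM with no overlap. In females it was higher by 0.33 ± 0.09 (adjusted p = 0.0236), and 6 of 8 Pkd1KO females lay above all Pkd1KO+ciliaKO females. In Pkd1KO+ciliaKO against noncystic males *Psen2* fell by 0.47 (SE 0.10, adjusted p = 0.0067) and *Ncstn*, which encodes nicastrin of the same complex, fell by 0.23 (SE 0.07, adjusted p = 0.0389). *Psen2* in Pkd1KO against noncystic mice gave 0.08 ± 0.09 (adjusted p = 0.661) in males and 0.00 ± 0.09 (adjusted p = 1.00) in females. *Hdac1*, a deacetylase of repressor complexes, was higher in Pkd1KO than in Pkd1KO+ciliaKO males by 0.33 ± 0.06 (adjusted p = 0.0024), and it fell in Pkd1KO+ciliaKO against noncystic males by 0.38 (SE 0.07, adjusted p = 0.0017). The last 2 comparisons share the Pkd1KO+ciliaKO males.

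In counts over the list, 3 of 65 passed in Pkd1KO against Pkd1KO+ciliaKO males beside 3.77% of all genes, and 3 of 66 in Pkd1KO+ciliaKO against noncystic males beside 8.89%. In Pkd1KO against Pkd1KO+ciliaKO females 9 of 66 passed, 5 higher (beside 7.05% of all genes) and 4 lower (beside 4.65%). Among those with the smallest p after *Notch2* were *Neurl1b* (−0.43 ± 0.10 on the log2 scale, adjusted p = 0.0097), *Aph1b* (−0.32 ± 0.07, adjusted p = 0.0108), *Psen2* and *Snw1* (0.27 ± 0.07, adjusted p = 0.0277). *Aph1b*, a gamma-secretase subunit gene, has a near-identical copy, *Aph1c*, and its reads are uncertain. In Pkd1KO+ciliaKO against noncystic females 0 of 67 passed by edgeR beside 2.54%, with 15 at an unadjusted p under 0.05, and 6 passed by DESeq2. Without the 2 females whose *Kif3a* went against the label, 6 passed by edgeR. The share of all genes is not given here for the unadjusted p, for DESeq2 or without these 2 females. The counts at these settings are therefore not a result about the list.

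Between noncystic females and males 21 of 66 listed genes passed, 11 higher and 10 lower in females, beside 27.5% of all genes. *Tle2*, whose test is not independent of its choice, is among the 21. Of the listed genes other than the 10, those with the smallest p included *Ctbp2*, *Maml3*, *Hes6* and *Itch*. *Ctbp2*, a corepressor gene, was higher in females by 0.47 ± 0.06 on the log2 scale (SE) with no overlap, and *Maml3*, a Mastermind coactivator gene, was higher by 0.47 ± 0.09 (adjusted p = 0.0008 by edgeR). *Hes6* was lower by 0.47 (SE 0.10, adjusted p = 0.0018), and *Itch*, a ubiquitin ligase gene, by 0.29 (SE 0.07, adjusted p = 0.0041). The median over the list was 0.00 on the log2 scale, beside 0.01 over all genes.

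The genes next to *Tle2* on chromosome 10 were read as a check of the region. *Gna11* and *Tle5* on one side, and *Tle6* and *BC025920* on the other, passed the test in 0 of the 6 genotype comparisons by edgeR. In Pkd1KO against noncystic males their log2 fold changes were 0.02 ± 0.04 (*Gna11*), −0.04 ± 0.09 (*Tle5*), −0.30 ± 0.24 (*Tle6*) and 0.02 ± 0.15 (*BC025920*), with unadjusted p under 0.05 in none. *Tle5*, a short family member that lacks the repressing part, was far above the other family members at 445 ± 57 TPM in noncystic males (SD, n = 8).

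The genes whose levels followed *Tle2* most closely differed between the sexes. Over 24 males, by Pearson's r of log2(CPM + 0.1), these were *Sv2a* (r = 0.92), *Grb14* (0.91), *Sowaha* (0.90), *Ppp1r1b* (0.89) and *Egf* (0.88), with Spearman's rho from 0.86 to 0.91. Without the 4 males that stood apart the values of r were 0.84 to 0.88. All 5 had their lowest group mean in Pkd1KO males. *Egf*, a growth factor gene of the distal nephron, had means of 1084, 427 and 697 CPM in noncystic, Pkd1KO and Pkd1KO+ciliaKO males. Over 21 females the closest were *Cited1* (r = 0.83), *Acot7* (0.82), *Anxa8* (0.81), *Gnat2* (0.81) and *E330021D16Rik* (0.81), with rho from 0.74 to 0.88, and r from 0.66 to 0.84 without the 2 females farthest from the *Tle2* median. All 5 had their highest mean in Pkd1KO females. These values of r are a description over mice of 3 genotypes that share 1 sequencing batch, and the genes were picked as the highest of all genes measured. The group means of these genes largely follow from that choice. *Tle2* itself had its lowest mean among males, and its highest among females, in Pkd1KO mice.

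Markers of some but not all tubule segments were lowest in Pkd1KO males, as *Tle2* was. The 4 thick ascending limb markers summed to medians of 3222, 2064 and 3439 CPM in noncystic, Pkd1KO and Pkd1KO+ciliaKO males, with ranges of 2307 to 4500, 1991 to 3378 and 2328 to 4268 CPM. The 5 intercalated cell markers summed to medians of 368, 307 and 400 CPM in the same groups, with ranges of 331 to 419, 248 to 387 and 287 to 488 CPM. The 3 distal convoluted tubule markers summed to medians of 428, 332 and 420 CPM in these groups. Other segments differed: the 5 principal cell markers had medians of 350, 395 and 411 CPM, and the 8 proximal tubule markers 11526, 8917 and 8121 CPM. Of the thick ascending limb markers 1 of 4 passed as lower in Pkd1KO than in noncystic males (*Slc12a1*), beside 6.30% of all genes in either direction. Against Pkd1KO+ciliaKO males 2 of 4 passed as lower (*Kcnj1* and *Slc12a1*), beside 3.77% of all genes in either direction. In females the thick ascending limb sums had medians of 3591, 3491 and 4488 CPM. *Slc12a1* passed as lower in Pkd1KO than in Pkd1KO+ciliaKO females, where *Tle2* was higher, beside 4.65% of all genes that passed as lower. The 6 macrophage markers had positive fold changes in Pkd1KO against noncystic males with a median of 1.51 on the log2 scale, 5 of them at an unadjusted p under 0.05 and 1 (*Csf1r*) past the threshold by edgeR. Their sum, most of it *Csf1r*, had medians of 92.1, 115 and 75.6 CPM in the 3 male groups, and was highest in Pkd1KO male 4 at 264 CPM. In the same comparison 1 of 8 pericyte and fibroblast markers (*Acta2*) passed as higher, beside 6.30% of all genes in either direction. The part of these markers in the *Tle2* values was not tested.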

How the data were processed

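The 45 libraries were TRAP RNASeq of mouse kidney, depleted of ribosomal RNA. Per the submitters' processing notes the authors used fastp 0.20.0, STAR 2.7.9 and featureCounts 2.0.0 on GRCm38.p6. Deposited values were raw counts per gene and, in a table for each sex, TPM of protein-coding genes. The strand setting of the counting is not given in the sources used here.

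The deposited counts were scaled by TMM factors to CPM and fitted with edgeR 4.0.16 (quasi-likelihood test, R 4.3.3), each pair of genotypes within a sex, on protein-coding genes that reached 6 counts in 20% of the mice of the sex (15991 in males, 15968 in females). Females were compared with males, and genotype effects between the sexes, on 15828 genes. P-values were adjusted over all genes with a threshold of 0.05. On simulated counts with 200 genes changed by 1 on the log2 scale, 91% (Pkd1KO against noncystic males, 15991 genes) and 95% (females, 15968 genes) were recovered. The changed genes were drawn only from those above a minimum mean level. Smaller changes were not simulated, so the recovery of small differences or of the lowest genes is not known. Depth was 80874556 to 132958186 fragments per library. Which mice were littermates is not given in the sources used here.

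Alternatives were DESeq2 1.42.0, its size factors in edgeR, limma 3.58.1 on log2(TPM + 1), no filter, all annotated genes, 3 genotypes in one fit, a replicate block, and leaving out mice. None of 149 pairs of mice within a group agreed within sampling noise. Replicate numbers did not pair the mice. The genes and lists were chosen with earlier results of these data known. Genes named were the 10, up to 5 other listed genes past the threshold with the smallest p per comparison, the 2 nearest measured genes on either side of *Tle2*, and the 5 with the highest Pearson r with *Tle2* in each sex; markers were named as they passed. Some genes that this rule selects are not reported here. *Tle2* was given no test against Pkd1KO mice.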

Additional observations from a re-analysis of the deposited data

Results flagged for a closer look

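Of 60 groups examined (10 genes in 6 groups), 7 held a mouse far from the others. Chance gives about 1 in 20 groups for independent, normally distributed values. The CPM were not log-transformed here and the 10 genes share the same mice, so the 7 cannot be read as an excess over that rate. *Tle2* in Pkd1KO female 4 was 18.7 CPM, with the next mouse at 10.8 CPM. *Tle6* was highest in the same mouse, at 1.45 CPM against 1.02 CPM, and in Pkd1KO male 3 it was 0.949 CPM against 0.690 CPM. *Tle4* was lowest in Pkd1KO female 6, at 22.8 CPM with the next mouse at 27.3 CPM, and *Jag1* was lowest in Pkd1KO female 2, at 28.9 CPM against 37.4 CPM. *Notch2* was highest in Pkd1KO+ciliaKO male 9, at 128.9 CPM against 102.6 CPM, and *Hes1* was highest in Pkd1KO+ciliaKO male 2, at 37.5 CPM against 27.5 CPM. None of these mice was among the 4 males that stood apart or the 2 females whose *Kif3a* went against the label.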

How the results depend on the processing

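Of 3120 values of the 10 genes under alternatives, 111 changed sign, and 0 of these had passed the threshold. The 6 calls among the 10 genes (*Notch2* in Pkd1KO against Pkd1KO+ciliaKO females, and 5 genes between noncystic females and males) passed under every alternative run for them. The *Tle2* call among these is not independent of the choice of the gene. By limma on log2(TPM + 1), *Tle2* in Pkd1KO mice moved to −0.59 and −0.45 (males) and 0.50 (females, against Pkd1KO+ciliaKO), since that scale shrinks low genes. Counts of listed genes past the threshold moved more, and the cause was not tested. The share of all genes past the threshold under each alternative is not given here. These moves can therefore not be read as particular to the listed genes. In Pkd1KO against noncystic males the count of 2 became 1 by limma. In Pkd1KO against Pkd1KO+ciliaKO males the count of 3 became 6 by DESeq2, 1 by limma and 5 with 3 genotypes in one fit. In Pkd1KO+ciliaKO against noncystic males the count of 3 became 6 by DESeq2, 1 by limma and 7 without the males that stood apart. In Pkd1KO against noncystic females the count of 3 became 6 by DESeq2 and 6 by limma. In Pkd1KO+ciliaKO against noncystic females the count of 0 became 6 by DESeq2, 6 by limma and 6 without the 2 females. Leaving out 1 mouse gave 2 to 2, 2 to 4 and 2 to 7 in the male comparisons (7 without noncystic male 3). In females it gave 3 to 3 against noncystic, 4 to 11 for Pkd1KO against Pkd1KO+ciliaKO (main 9, 5 without Pkd1KO female 6, Pkd1KO female 8 or Pkd1KO+ciliaKO female 4, and 4 without Pkd1KO+ciliaKO female 5) and 0 to 4 for Pkd1KO+ciliaKO against noncystic (4 without noncystic female 5, 3 without Pkd1KO+ciliaKO female 6). Between the sexes it gave 17 to 27, and 0 to 0 for the 3 differences of genotype effects.

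With the replicate number as a block (replicate block), the count in Pkd1KO against Pkd1KO+ciliaKO females fell from 9 to 2, and *Notch2* gave 0.37 (adjusted p = 0.0262). Same-numbered mice had correlations of −0.288 to 0.280 in their deviations from the group means, so the numbers are names only. The block moved no other count by over 1.5 times. *Tle6* and *Hey1*, with 31 to 170 counts per mouse, were the genes most limited by depth.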
